A study of Homo sapiens with 9 samples.

Results

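The transcription factor genes of the PAX, LHX, IRX, DLX, NKX and TBX families and of the sine oculis homeobox group (such as SIX3 and SIX5) were taken as every gene symbol made of one of these 7 family names and a number, and 61 of the 23284 symbols in the files met that rule. They comprised 13 NKX, 13 TBX, 9 PAX, 8 LHX, 6 DLX, 6 IRX and 6 sine oculis genes. The rule used names alone, but it was set with earlier results of these data known. Paired-end RNA-Seq gave their RNA levels in HT-29, an established human colon cancer line grown as monolayers, after 5 days with vehicle (DMSO, written 0 µM) or with 5 µM or 10 µM of 5-aza-deoxycytidine (5-Aza), a nucleoside that blocks DNA methyltransferases. Each dose had 3 replicates, labelled as biological and grown as triplicate cultures of this single line. The 15 colon epithelial genes checked, among them EPCAM, VIL1, CDX2 and KRT20, were above 0 in all 9 libraries.

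These families encode DNA-binding proteins that set cell identity in the embryo. PAX proteins bind through a paired domain, sine oculis proteins act with EYA co-activators and DACH co-factors, LHX proteins carry LIM domains that bind LDB, and TBX proteins carry the T-box. DLX genes pattern the jaw, limbs and forebrain, IRX genes pattern the neural plate and heart, and NKX genes pattern endoderm organs, heart and ventral neural tube. Many lie near dense CpG, the dinucleotide that DNA methyltransferases act on, and PAX and NKX genes are known as targets of DNA methylation in tumours.

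Values are FPKM, fragments per kilobase and library size as the authors computed them, but on an unusual scale on which a library summed to between 3.69e+09 and 5.91e+09. FPKM is per length, so levels of different genes can be set side by side. The median of all symbols above 0 in a library lay between 52105 and 78724 FPKM, so 1000 FPKM is a low level here. For a gene of given length the values fell on whole multiples of 1 step per library, the worth of a single fragment, and for 25 of the 61 genes whole numbers of steps could be recovered as lower limits on the fragments counted. Summed over 3 libraries, the depth inferred from the steps was 1.56 times as high at 5 µM and 1.07 times as high at 10 µM as at 0 µM. A gene absent from a library is written here as listed at 0.

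For 41 of the 61 genes a promoter window was at hand, from 250 bases before to 50 bases after the start of transcription, taken from RefSeq (GRCh38.p14) and found once each by exact match on GRCh37, whose positions are given. The 41 windows held a median of 23 CpG sites, and those of 14041 genes in the files held a median of 22. At least 10 CpG sites were present in 37 of the 41 windows and in 72.9% of all windows. The windows of 7 genes are shown 5′ to 3′ with every CpG in capitals, since these genes stand for the patterns described further on: DLX2, PAX7, NKX2-4, TBX6 and TBX10 rose at 5 µM, PAX4 fell, and IRX2 was among the highest in untreated cells. Positions are chr2:172967579-172967878 for DLX2, chr1:18957090-18957389 for PAX7, chr20:21378115-21378414 for NKX2-4, chr16:30103196-30103495 for TBX6, chr11:67407185-67407484 for TBX10, chr7:127258147-127258446 for PAX4 and chr5:2751742-2752041 for IRX2. PAX7 is on the plus strand and the other 6 are on the minus strand, and each window reads along its gene.
DLX2: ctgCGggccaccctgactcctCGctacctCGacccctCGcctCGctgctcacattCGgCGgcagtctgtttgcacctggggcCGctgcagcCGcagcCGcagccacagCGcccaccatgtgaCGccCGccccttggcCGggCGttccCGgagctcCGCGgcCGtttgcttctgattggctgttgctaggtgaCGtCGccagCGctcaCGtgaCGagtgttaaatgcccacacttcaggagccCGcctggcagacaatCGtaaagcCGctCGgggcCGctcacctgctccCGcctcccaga
PAX7: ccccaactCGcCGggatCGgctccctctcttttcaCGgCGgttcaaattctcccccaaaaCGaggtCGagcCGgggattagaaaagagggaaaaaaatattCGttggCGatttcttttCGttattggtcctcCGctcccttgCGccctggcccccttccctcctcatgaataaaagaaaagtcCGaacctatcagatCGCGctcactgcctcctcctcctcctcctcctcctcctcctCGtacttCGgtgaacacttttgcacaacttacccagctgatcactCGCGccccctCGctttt
NKX2-4: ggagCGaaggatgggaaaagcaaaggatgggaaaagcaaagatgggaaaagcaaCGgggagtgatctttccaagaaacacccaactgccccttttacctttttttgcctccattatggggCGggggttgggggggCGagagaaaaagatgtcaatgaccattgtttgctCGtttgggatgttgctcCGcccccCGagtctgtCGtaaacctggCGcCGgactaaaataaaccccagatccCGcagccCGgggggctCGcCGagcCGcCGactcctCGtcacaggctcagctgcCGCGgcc
TBX6: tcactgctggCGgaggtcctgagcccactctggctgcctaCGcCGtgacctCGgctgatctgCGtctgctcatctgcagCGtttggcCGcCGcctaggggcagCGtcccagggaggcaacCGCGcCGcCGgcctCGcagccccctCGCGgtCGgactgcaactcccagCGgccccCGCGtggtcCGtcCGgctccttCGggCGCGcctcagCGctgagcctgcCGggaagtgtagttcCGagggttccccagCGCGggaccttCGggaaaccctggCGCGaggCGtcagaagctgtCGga
TBX10: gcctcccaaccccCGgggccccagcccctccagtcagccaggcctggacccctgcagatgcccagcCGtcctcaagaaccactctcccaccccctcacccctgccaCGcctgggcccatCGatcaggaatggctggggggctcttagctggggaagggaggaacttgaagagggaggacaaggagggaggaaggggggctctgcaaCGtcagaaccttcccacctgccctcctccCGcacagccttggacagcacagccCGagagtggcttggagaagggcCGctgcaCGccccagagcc
PAX4: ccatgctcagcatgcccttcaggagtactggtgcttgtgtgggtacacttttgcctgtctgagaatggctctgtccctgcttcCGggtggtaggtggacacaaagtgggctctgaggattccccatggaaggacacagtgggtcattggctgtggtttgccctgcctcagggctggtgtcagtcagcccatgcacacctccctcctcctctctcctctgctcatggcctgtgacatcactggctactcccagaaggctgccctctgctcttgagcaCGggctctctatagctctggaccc
IRX2: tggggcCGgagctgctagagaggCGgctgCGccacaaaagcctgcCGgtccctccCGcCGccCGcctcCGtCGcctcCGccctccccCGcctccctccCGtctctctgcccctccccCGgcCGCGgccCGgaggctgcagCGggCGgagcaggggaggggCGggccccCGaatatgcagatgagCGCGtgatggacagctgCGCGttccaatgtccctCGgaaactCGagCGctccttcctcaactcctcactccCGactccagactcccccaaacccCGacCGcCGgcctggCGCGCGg

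The counts of CpG sites were 35 for TBX6, 34 for IRX2, 30 for DLX2, 21 for PAX7 and 19 for NKX2-4. TBX10 held 9 sites, at the 25.5th percentile of all windows, and PAX4 held 2, at the 6.06th percentile. IRX2 with 34 sites did not pass the 2-fold limit at any dose.

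In untreated HT-29 cells, 24 of the 61 genes were above 0 in all 3 libraries, 12 were above 0 in 1 or 2 of them and 25 were listed at 0. Of the 24, 11 averaged at least 10000 FPKM, 10 lay between 1000 and 10000, and 3 were lower. SIX5, whose product is a homeodomain protein expressed in many adult tissues, was highest with 170663, 169381 and 153667 FPKM, at the 76.5th percentile of all symbols. TBX3, a T-box repressor of senescence genes, followed with 110379, 111022 and 125380 FPKM. IRX2, a homeodomain factor of the Iroquois group, had 85137, 84936 and 77016 FPKM. PAX8, a regulator of thyroid and kidney development, had 49407, 51645 and 58140 FPKM. These 4 genes kept the same order in every untreated library and their ranges did not overlap.

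Below them the ranges ran into each other. PAX4, a factor of pancreatic beta cell formation, had 25883, 16018 and 38153 FPKM, and TBX19, the factor that turns on pro-opiomelanocortin in the pituitary, had 21916, 26127 and 30928. IRX5 had 30309, 24170 and 18926 FPKM and TBX10 had 21706, 20807 and 19529. LHX4, a pituitary factor, had 17065, 23449 and 18187 FPKM. SIX4 had 17668, 18447 and 13348 FPKM and TBX6, a factor of paraxial mesoderm, had 10557, 19069 and 12360. The 7 genes from PAX4 to TBX6 could not be put in a firm order, since each range overlapped that of its neighbour in the ranking by mean.

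In the middle class, TBX1, a pharyngeal arch factor, had 7210, 10395 and 9311 FPKM, DLX4 had 10253, 5002 and 7598, and TBX15 had 7898, 6923 and 6853. PAX9, a factor of tooth and pharyngeal pouch, had 5798, 5759 and 5183. LHX3, LHX1, PAX6, DLX3 and DLX2 averaged at most 2754 FPKM. LHX3 had 1416, 4691 and 2156 FPKM, LHX1, needed for kidney and head formation, had 1895, 1569 and 2885, and PAX6, the eye and islet factor, had 2515, 2044 and 1232. DLX3 had 1915, 845 and 747 FPKM and DLX2 had 729, 966 and 1366. NKX3-2, NKX2-2 and IRX3 were above 0 in all 3 libraries at means of 868, 862 and 238 FPKM.

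**Figure D1:**
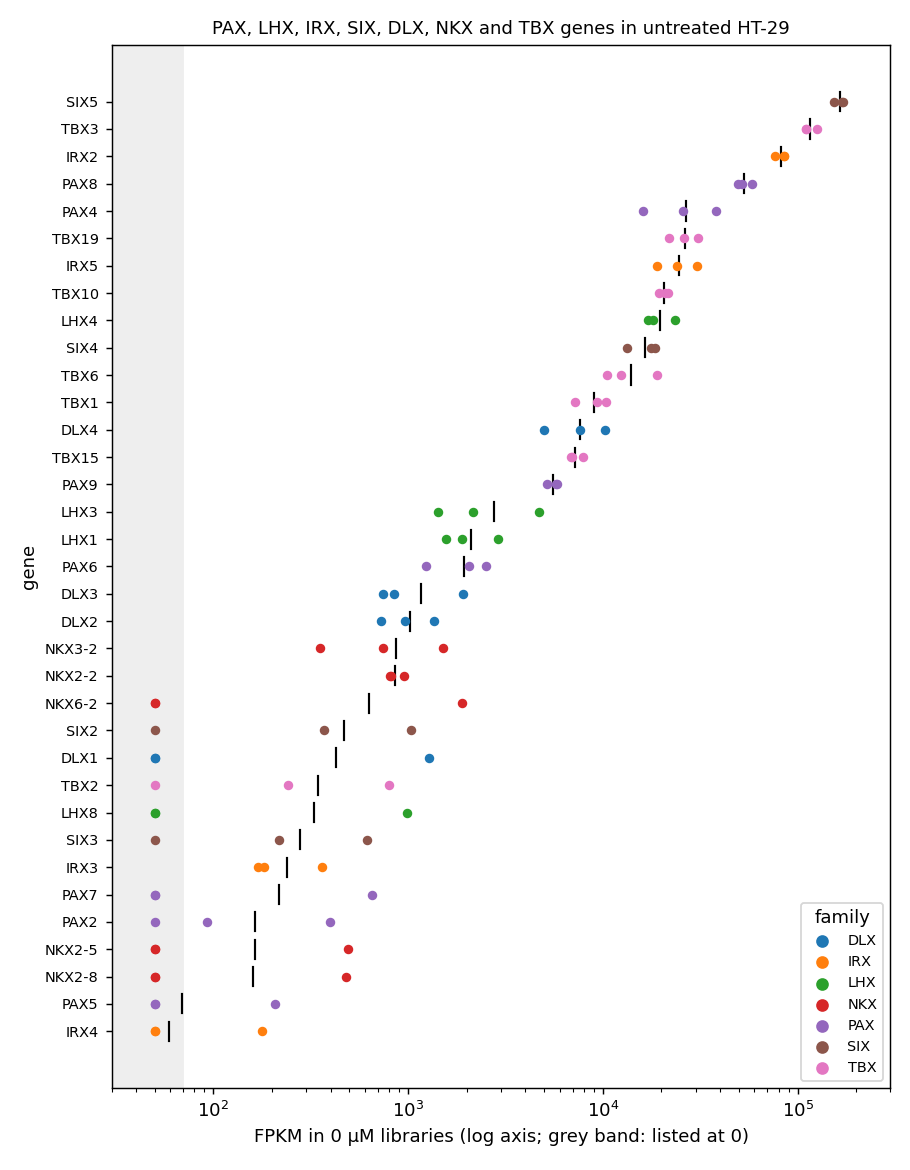
FPKM of 35 genes above 0 in at least 1 untreated library (log axis). Each dot is 1 of 3 libraries, the tick is their mean and the grey band holds libraries where a gene was listed at 0; SIX5, TBX3, IRX2 and PAX8 stand apart at the top, at means of 164570, 115594, 82363 and 53064 FPKM.

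The 12 genes above 0 in only 1 or 2 untreated libraries were DLX1, IRX4, LHX8, NKX2-5, NKX2-8, NKX6-2, PAX2, PAX5, PAX7, SIX2, SIX3 and TBX2, at means from 59.3 FPKM in IRX4 to 631 in NKX6-2. Those listed at 0 in all 3 included DLX5, DLX6, IRX1, IRX6, LHX2, LHX5, LHX6, LHX9, NKX1-2, NKX2-1, NKX2-3, NKX2-4, NKX2-6, NKX6-1, NKX6-3, PAX1, PAX3, SIX6, TBX4, TBX5, TBX18, TBX20, TBX21 and TBX22. NKX2-3, a factor of gut mesenchyme and spleen, was in this class, and it stayed at 0 in all 9 libraries, as did IRX1, IRX6, LHX5, NKX2-6, PAX1 and TBX22.

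More of the genes were above 0 at 5 µM than at either other dose. In a single library 28 to 30 of the 61 were above 0 at 0 µM, 45 to 46 at 5 µM and 33 to 35 at 10 µM. All symbols above 0 moved the same way, from 16373 to 16958 per library at 0 µM to 18761 to 18957 at 5 µM and 17114 to 17592 at 10 µM. The numbers above 0 in all 3 libraries of a dose were 24, 38 and 27 of the 61 genes. Of the 25 listed at 0 in untreated cells, 6 were above 0 in all 3 libraries at 5 µM, among them LHX6, NKX2-1, NKX2-4, TBX4 and TBX21, 11 others were above 0 in 1 or 2, and none was above 0 in all 3 at 10 µM. The greater depth at 5 µM moves with these numbers, and its part in them was not tested.

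**Figure D2:**
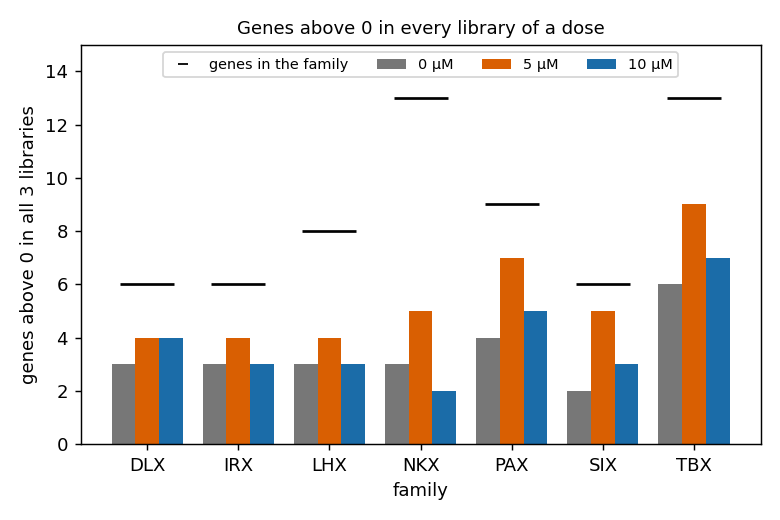
Number of genes of each family above 0 in all 3 libraries of a dose; bars stand for the doses and the black line marks the family's size. Every family had its highest number at 5 µM, alone or, for DLX, shared with 10 µM, and the totals were 24, 38 and 27 of 61.

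The comparison of 5 µM with 0 µM asks which of the genes respond to the lower dose. Of the 61 genes, 47 averaged at least 100 FPKM over the 6 libraries and were tested, 20 rose, 1 fell and 26 were not called. A call needed a 2-fold difference on the log2(FPKM + 100) scale together with a limma p that was no higher than 0.05 after Benjamini-Hochberg adjustment over all genes tested. Over all 18958 symbols tested, 17.1% rose and 2.36% fell. Low genes rose more often than high ones in the files as a whole, so the level in untreated cells is given beside the counts. Among the genes of at least 10000 FPKM in untreated cells, 2 of 11 rose, beside 4.85% of all 12269 symbols of that class. Between 1000 and 10000 FPKM, 5 of 10 rose, beside 36.6% of 2497 symbols. Under 1000 FPKM but above 0 in all 3 untreated libraries, 1 of 3 rose, beside 44.7% of 685. Of those above 0 in only 1 or 2, 11 were tested and 6 rose, beside 31.5% of 2018. Of those listed at 0 in untreated cells, 12 were tested and 6 rose, beside 53.7% of 1489 symbols, and a gene of this class could pass the filter only through its 5 µM values.

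The median difference over the 47 tested genes was 1.46 on the log2 scale, or 1.34 with the genes listed at 0 in untreated cells set to a lower bound, and 0.09 over all symbols tested. Over the 21 genes of at least 1000 FPKM in untreated cells, which the treated libraries did not help to choose, it was 0.42. Over all 14766 symbols of at least 1000 FPKM there it was -0.06. These 2 sets were not matched by level within that range. Between 1000 and 10000 FPKM, the class in which symbols rose more often, lay 10 of the 21 genes but only 2497 of the 14766 symbols. All 3 values at 5 µM lay above all 3 at 0 µM for 22 of the 47 genes and for 30.8% of all symbols. They lay below for 3 of the 47, PAX4, SIX5 and IRX2, and for 24.6% of all symbols.

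The 4 DLX genes that were tested all rose. DLX3, a factor of placenta, skin and tooth, had 1915, 845 and 747 FPKM at 0 µM and 14859, 12286 and 15750 at 5 µM. All treated values were far above the untreated ones, the means differed 12.2-fold and the log2 difference was 3.61 ± 0.39 (SE, adjusted p = 0.000503, limma). DLX2, a factor of forebrain interneurons and branchial arches, went from 729, 966 and 1366 to 4396, 5743 and 4959 FPKM, 4.93-fold in the means. DLX1, its neighbour on chromosome 2 with a gap of 9761 bases, was listed at 0 in 2 untreated libraries and had 1282 FPKM in the other one, against 2576, 6459 and 4212 at 5 µM. Its call was lost without the second or the third library at 5 µM (DLX1 adjusted p = 0.0652 and 0.0607, limma) and with a pseudocount of 1 (0.0538). DLX4, next to DLX3 on chromosome 17 with a gap of 15046 bases, had 17399, 14454 and 13340 FPKM at 5 µM against 10253, 5002 and 7598, a 1.98-fold difference in means that just passed the limit with a log2 difference of 1.02 ± 0.29. The DLX4 call was lost without the second untreated library, where the difference was 0.76, or without any single library at 5 µM (adjusted p = 0.0612 to 0.0934, limma). DLX5 and DLX6, the third such pair, were above 0 in a single 5 µM library, at 245 and 357 FPKM, and were not tested.

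Among the NKX genes, NKX2-2, a factor of ventral neural tube and of endocrine cells of gut and islets, had 817, 811 and 956 FPKM at 0 µM and 9847, 12685 and 11268 at 5 µM. These values are 2, 3 and 5 steps against 58, 71 and 71. The groups lay far apart, the means differed 13.1-fold and the log2 difference was 3.56 ± 0.28 (adjusted p = 0.000145, limma). NKX2-4, which lies 113491 bases from NKX2-2 on chromosome 20, was listed at 0 in untreated cells and had 2029, 2373 and 1475 FPKM at 5 µM, 26 steps in all, which is at least 5.54-fold higher if untreated cells are allowed 3 steps over the group. NKX2-1, the thyroid and lung factor, was listed at 0 in untreated cells and had 966, 339 and 602 FPKM at 5 µM, but only 6 steps, which bounds the fold at 1.28 or more. PAX1, the third member of these families in the chromosome 20 stretch, stayed at 0.

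PAX genes moved both ways. PAX7, a factor of muscle satellite cells, had 653 FPKM in 1 untreated library and was listed at 0 in the other 2, against 4178, 3403 and 5251 at 5 µM (log2 difference 4.46 ± 0.82, adjusted p = 0.00452, limma). PAX2, of kidney and optic stalk, was at 399, 0 and 93.3 FPKM and then at 663, 610 and 1471. PAX5, the B cell factor, was at 0, 0 and 208 FPKM and then at 369, 388 and 603. PAX2 and PAX5 rested on 3 and 2 steps at 0 µM and on 34 and 15 at 5 µM, with adjusted p of 0.044 and 0.0468 (limma). Both calls were lost without any single library at 5 µM, and also without the second or the third untreated library for PAX2 and without the first or second for PAX5 (adjusted p = 0.0698 to 0.127 for PAX2 and 0.0723 to 0.143 for PAX5, limma). PAX4 was the only gene of the 61 that fell: from 25883, 16018 and 38153 FPKM to 6526, 5754 and 5441, with all 3 treated values under every untreated one. The ratio of its means was 0.221 and its log2 difference was -2.07 ± 0.32 (adjusted p = 0.00211, limma). PAX6, PAX8 and PAX9 were tested and not called. PAX6 had 1901, 1951 and 2621 FPKM at 5 µM, a log2 difference of 0.19 ± 0.38. PAX8 had 47441, 42765 and 51429 FPKM (-0.17 ± 0.12), and PAX9 had 9640, 5418 and 7987 (0.42 ± 0.28). All 3 overlapped their untreated values.

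In the sine oculis group SIX3 rose. SIX3, a forebrain and eye factor, was at 0, 219 and 618 FPKM at 0 µM and at 4391, 4765 and 5130 at 5 µM, or 5 steps against 105 over the group (log2 difference 4.10 ± 0.71, adjusted p = 0.00349, limma), a call that was lost with a pseudocount of 1 (adjusted p = 0.0688, limma). SIX4 had 17747, 23050 and 25931 FPKM at 5 µM and was not called (0.43 ± 0.21). SIX2, 59111 bases from SIX3 on chromosome 2, had 2450, 859 and 2290 FPKM against 0, 1041 and 368 and was not called either. SIX5, the highest of the 61, had 142301, 129321 and 138243 FPKM. Its difference of -0.27 ± 0.08 had an adjusted p of 0.0336 (limma) but was far below 2-fold.

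Among the LHX genes, LHX1 and LHX6 rose. LHX1 went from 1895, 1569 and 2885 to 10242, 12644 and 11968 FPKM, which is 4, 5 and 13 steps against 52, 61 and 65 (5.49-fold in the means, log2 difference 2.44 ± 0.30, adjusted p = 0.00084, limma). LHX6, a factor of forebrain interneurons, was listed at 0 in untreated cells and had 1028, 1578 and 1227 FPKM at 5 µM. LHX3 had 5447, 4437 and 5038 FPKM against 1416, 4691 and 2156, groups that overlap, and was not called. Its difference was 0.99 ± 0.45 (adjusted p = 0.108, limma). LHX4 had 27288, 18720 and 17633 FPKM and was not called at 0.10 ± 0.22. In the IRX family IRX4, a ventricular heart factor, rose from 0, 0 and 178 FPKM to 631, 498 and 1033, which is 1 step against 14, a call that was lost without the second untreated library (adjusted p = 0.0543, limma). IRX2 and IRX5 were not called, with 62245, 71701 and 65567 FPKM for IRX2 at 5 µM and 20572, 32563 and 26761 for IRX5. IRX2 lay lower at 5 µM in every library, by 0.31 ± 0.10 on the log2 scale.

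The TBX family held the genes that rose from the highest levels. TBX6 went from 10557, 19069 and 12360 to 51868, 49755 and 54637 FPKM, 3.72-fold in the means (log2 difference 1.93 ± 0.22, adjusted p = 0.000674, limma). TBX10 went from 21706, 20807 and 19529 to 48206, 65973 and 48168 FPKM, 2.62-fold. TBX1 went from 7210, 10395 and 9311 to 25571, 21989 and 20127 FPKM, 2.51-fold. None of these 3 pairs of groups overlapped, and all rested on at least 97.9 steps or estimated fragments per group. TBX4, a hindlimb and lung factor, and TBX21, the T-bet factor of T helper cells, were listed at 0 in untreated cells. TBX4 had 281, 443 and 1444 FPKM at 5 µM, or 16 steps and at least 3.41-fold, while TBX21 had 269, 141 and 251 FPKM from only 5 steps, at least 1.07-fold, and its call was lost without any single untreated library (TBX21 adjusted p = 0.107 to 0.139, limma). TBX15, a factor of limb and adipose tissue, lay higher in every library with 10236, 11889 and 12547 FPKM, at a difference of 0.67 ± 0.20 under the 2-fold limit. TBX3 had 125250, 152977 and 144480 FPKM and was not called at 0.28 ± 0.10, and TBX19, with 34682, 28764 and 24300, was not called at 0.15 ± 0.19.

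**Figure D3:**
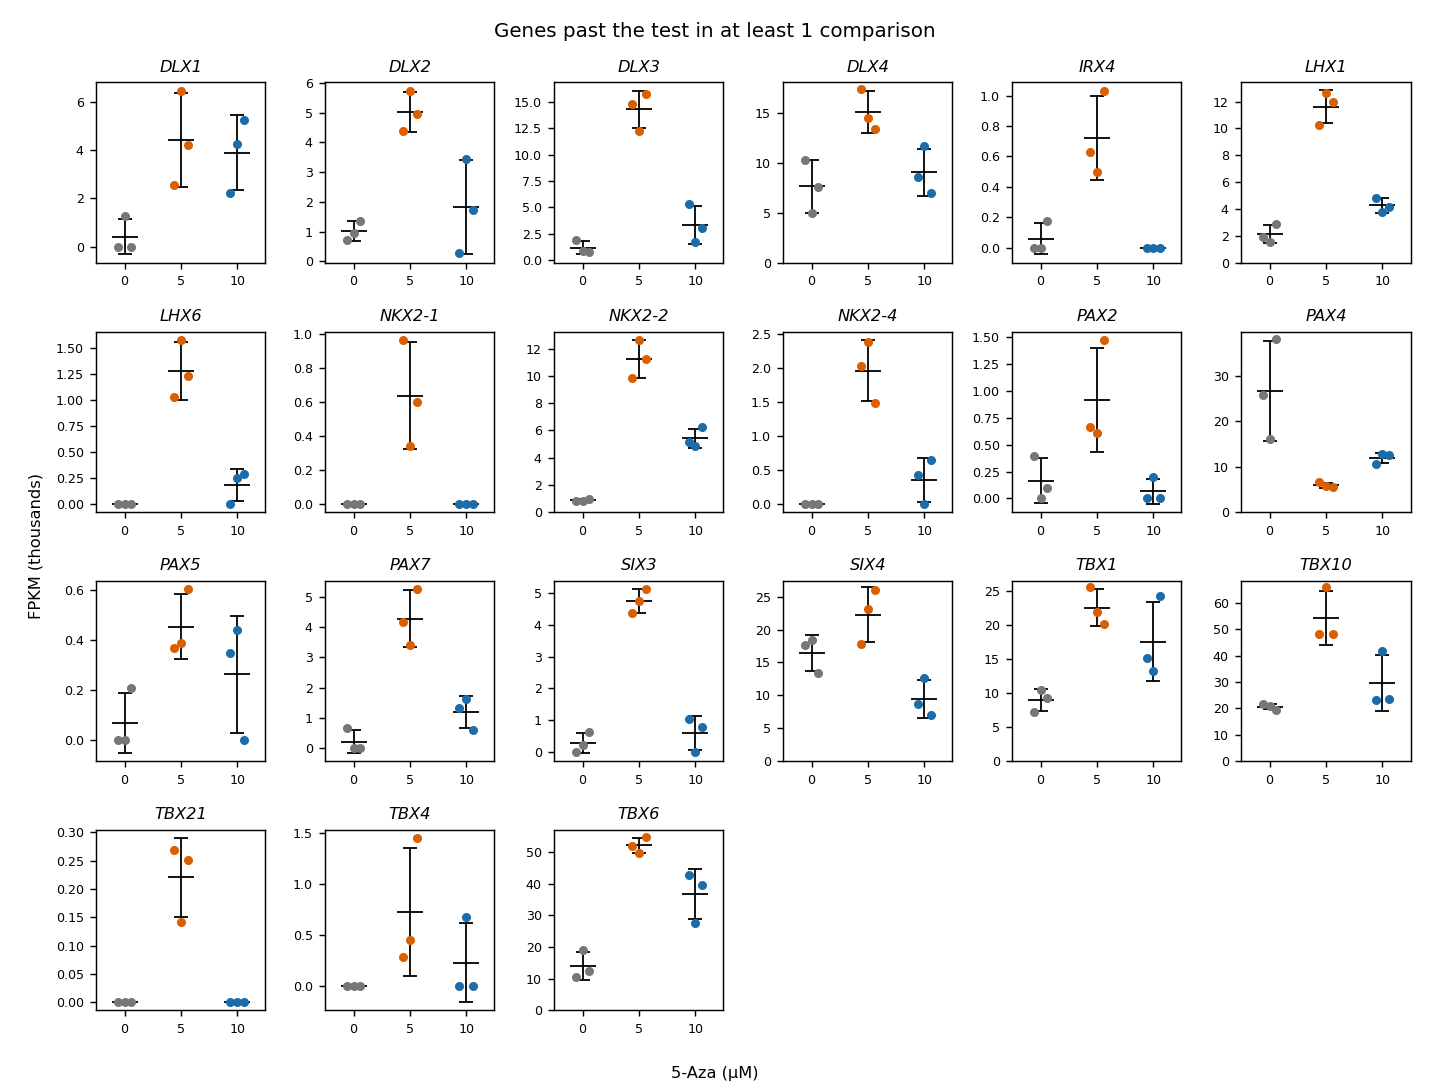
FPKM (axis in units of 1000) of 21 genes past the test in at least 1 comparison, at 0, 5 and 10 µM 5-Aza; dots are libraries, the bar is the mean and the error bar the SD of 3, and each panel has its own axis. PAX4 is the one panel in which 5 µM is lowest, and in the other 20 the mean is highest at 5 µM.

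Promoter windows were at hand for 15 of the 20 genes that rose at 5 µM and for 16 genes tested and not called. The 15 held 9 to 47 CpG sites with a median of 23, and the 16 held 3 to 41 with a median of 24. Some windows used a start away from the annotated gene start on GRCh37. Among the 15 this distance was 8625 bases for NKX2-2, 4084 for TBX4, 1193 for LHX6, 917 for NKX2-1, 767 for DLX1 and 291 for IRX4. Among the 16 it was 10098 bases for LHX2 and 562 for LHX9. PAX4 with 2 sites had the fewest of the 41. The letters TATAAA were found on the printed strand of 1 of the 41 windows, that of PAX5, and of 6.72% of all windows. No methylation was measured in these samples.

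The comparison of 10 µM with 0 µM asks which responses were present at the higher dose. At 10 µM 37 of the 61 genes were tested, 3 rose and 1 fell, while 5.3% of all 17941 symbols rose and 3.99% fell. NKX2-2 had 5141, 4880 and 6240 FPKM, or 16, 24 and 26 steps, all above every untreated value (6.29-fold in the means, log2 difference 2.52 ± 0.37, adjusted p = 0.00604, limma). TBX6 had 42666, 27717 and 39482 FPKM (2.62-fold, 1.40 ± 0.28, adjusted p = 0.0167, limma). DLX1 had 2213, 4242 and 5234 FPKM (3.97 ± 1.03, adjusted p = 0.0327, limma). PAX4 had 10684, 12676 and 12468 FPKM, again under every untreated value, and fell by 1.07 ± 0.32 on the log2 scale with an adjusted p of 0.0496 (limma), at the edge of the threshold. Leaving out single libraries ended the call for DLX1 in 5 of 6 cases (adjusted p up to 0.123, limma), for PAX4 in 5 of 6 (up to 0.133) and for TBX6 in 3 of 6 (up to 0.0684), with the second untreated library the exception for DLX1 and PAX4, while NKX2-2 kept its call in all 6. With median-of-ratios scaling PAX4 lost its call at -0.83, TBX1 and TBX2 rose too, and the all-gene counts moved from 951 up and 715 down to 1345 and 302.

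The other genes that rose at 5 µM were not called at 10 µM. LHX1 had 4846, 3775 and 4177 FPKM, above every untreated value, with a difference of 1.01 ± 0.38 that did not pass (adjusted p = 0.0889, limma). DLX3 had 5273, 1748 and 3001 FPKM and overlapped untreated cells (1.42 ± 0.56, adjusted p = 0.102, limma). TBX1 had 15200, 13270 and 24243 FPKM (0.93 ± 0.30, adjusted p = 0.0615, limma), and TBX10 had 23372, 41810 and 23499 (0.46 ± 0.26). SIX3 had 1039, 0 and 776 FPKM and PAX7 1335, 1625 and 614. IRX4, NKX2-1 and TBX21 were listed at 0 in all 3 libraries at 10 µM. DLX2 varied widely between cultures, with 287, 3450 and 1714 FPKM, or 1, 19 and 8 steps. TBX2, a T-box repressor that was not called at either dose, had 1705, 1438 and 1981 FPKM at 10 µM and 1701, 948 and 1216 at 5 µM, against 241, 797 and 0 in untreated cells. SIX5, the highest in untreated cells, had 104848, 135011 and 106617 FPKM (-0.52 ± 0.15, adjusted p = 0.0481, limma, under the 2-fold limit), and TBX3 had 114919, 117003 and 83847. Over all symbols tested the median difference was -0.17, and 0.07 with median-of-ratios scaling.

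Values at 10 µM of the genes not yet described were as follows. IRX2 had 63631, 71749 and 74042 FPKM and PAX8 had 36533, 43668 and 44511. IRX5 had 14763, 22072 and 14177 FPKM, LHX4 had 22427, 17210 and 12487, and TBX19 had 21613, 22116 and 30396. TBX15 had 5300, 7749 and 6416 FPKM, PAX9 had 3525, 5905 and 4027, LHX3 had 2786, 3814 and 4706, and PAX6 had 1529, 1708 and 1008. Except for IRX2 and PAX8, which lay under every untreated value, these genes overlapped untreated cells. All 3 values at 10 µM lay below all 3 at 0 µM for 5 of the 37 genes tested and for 28.1% of all symbols. They lay above for 7 of the 37 and for 15.2% of all symbols. DLX4, which rose at 5 µM, had 8511, 11620 and 6982 FPKM at 10 µM, overlapping its untreated values. LHX6 had 0, 246 and 291 FPKM at 10 µM, NKX2-4 had 427, 0 and 637, and TBX4 had 0, 673 and 0. PAX2 had 0, 198 and 0 FPKM and PAX5 had 349, 442 and 0. None of these 5 low genes was above 0 in all 3 libraries at this dose.

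**Figure D4:**
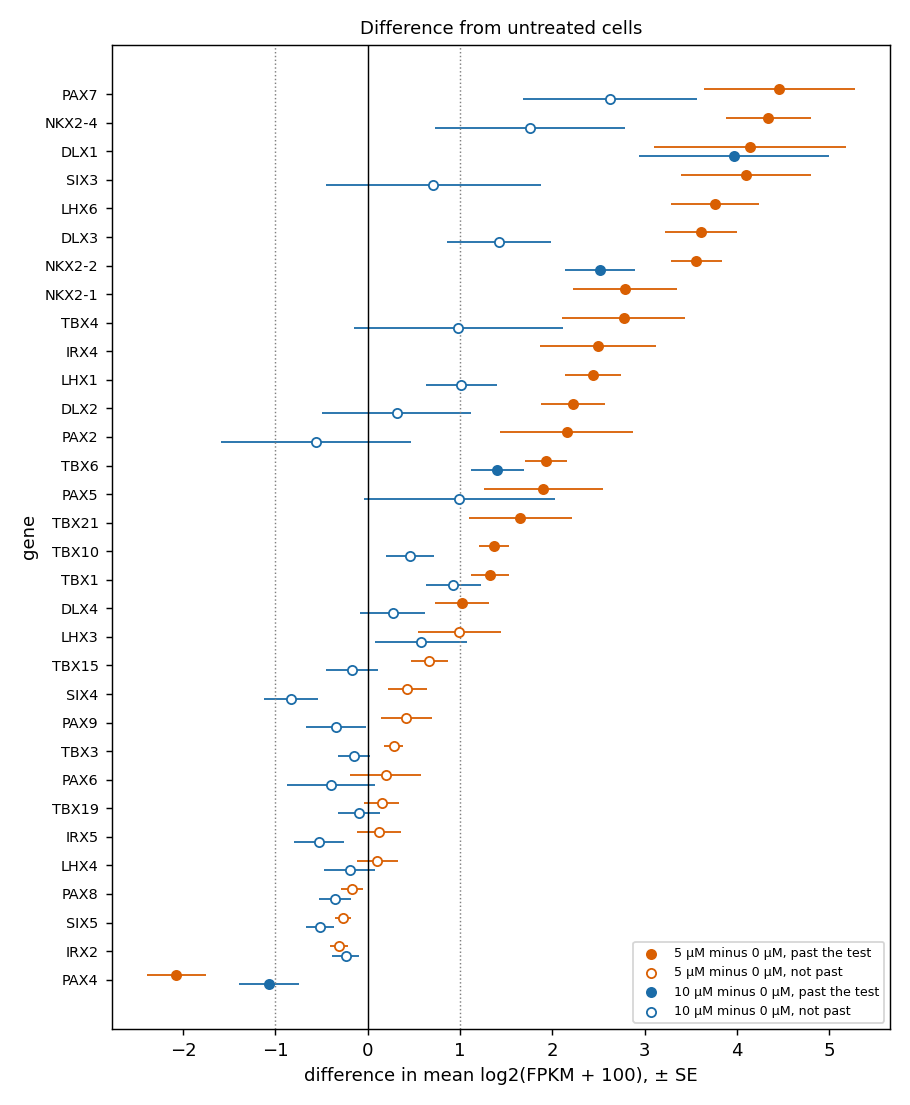
Difference from 0 µM in mean log2(FPKM + 100) with its SE, for 32 genes, at 5 µM (orange) and 10 µM (blue); filled dots passed the test and dotted lines mark 2-fold. For genes listed at 0 in untreated cells the size depends on the added 100; at 5 µM 19 dots on the right and PAX4 on the left are filled, and at 10 µM NKX2-2, DLX1, TBX6 and PAX4.

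The 2 treated doses were compared directly, since a call at one dose and not at the other does not show that they differ. Both comparisons with 0 µM share the untreated libraries, and this one shares the treated ones with them. At 10 µM against 5 µM, 47 of the 61 genes were tested, 8 were lower and 1 higher, while 5.94% of all 19029 symbols were lower and 0.179% higher. DLX3 differed by -2.19 ± 0.40 (adjusted p = 0.0152, limma), LHX1 by -1.43 ± 0.25 (adjusted p = 0.0141, limma) and NKX2-2 by -1.04 ± 0.25 (adjusted p = 0.0417, limma). PAX7, SIX3, IRX4 and NKX2-1 were lower as well, IRX4 from 14 steps to 0, which is at least 3.2-fold, and NKX2-1 from 6 steps to 0. SIX4, which had not been called at 5 µM, had 8633, 12585 and 7020 FPKM at 10 µM, a difference of -1.26 ± 0.28 (adjusted p = 0.033, limma). PAX4 was the gene that was higher, by 1.00 ± 0.24 (adjusted p = 0.0389, limma). TBX6 and DLX1 were not called between the doses, at -0.53 ± 0.20 and -0.17 ± 0.45. Few of these calls held when a culture was left out: without any 1 of the 3 libraries at 5 µM none of the 61 genes was called in either direction, and without the second library at 10 µM 13 were called lower. All 3 values at 10 µM lay below all 3 at 5 µM for 21 of the 47 genes and for 26.4% of all symbols, and above for 1 gene, PAX4, and for 4.61%.

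Co-factors that these proteins bind were counted beside the 17.1% of all symbols that rose at 5 µM. Of the 6 EYA and DACH genes 5 were tested at 5 µM and DACH1 rose, from 758, 2109 and 1869 to 2724, 4379 and 4959 FPKM. EYA3, the EYA gene with the highest level, stayed between 41615 and 68080 FPKM in all 9 libraries and was not called. None of the 4 LDB and LMO genes tested was called, with LDB1 between 267450 and 384772 FPKM throughout. Of the 4 TLE co-repressors TLE2 rose at 5 µM, from 2211, 1220 and 1370 to 4318, 2900 and 3204 FPKM. Among related homeobox and T-box genes outside the 7 families, HHEX and TLX1 rose of 9 NK-like genes tested, PITX3 rose of 3 paired-like genes, and none was called of 2 LIM homeodomain and 3 T-box genes, beside the same 17.1%. PITX3 was listed at 0 in untreated cells and had 5396, 1988 and 6053 FPKM at 5 µM. At 10 µM against 0 µM none of these co-factor and related genes rose and PITX1 fell. The median log2 differences at 5 µM were 1.31 for EYA and DACH, 0.15 for LDB and LMO and -0.05 for TLE. For related genes they were 1.41 for NK-like, 0.65 for T-box, -0.06 for paired-like and -0.26 for LIM homeodomain genes. The median over all symbols tested was 0.09, and the lists were not matched to it by level. EYA2, HMX3, EOMES and PITX3 were listed at 0 in untreated cells and passed the filter only through their 5 µM values.

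Of 15 genes that mark colon epithelium, HNF4A, ELF3, KRT8 and KRT18 fell at 5 µM and CDX1, an intestinal homeobox factor, rose from 3424, 4211 and 4352 to 15250, 18402 and 19007 FPKM. CDX2, HNF4A, ELF3 and KRT20 fell at 10 µM against 0 µM. Their summed level was 8.05e+07 to 9.6e+07 FPKM at 0 µM, 3.29e+07 to 3.75e+07 at 5 µM and 2.65e+07 to 4.55e+07 at 10 µM. Markers of other cell types rose at 5 µM too: 3 of 5 fibroblast genes (COL1A1, COL1A2 and LUM), 3 of 3 endothelial genes (PECAM1, VWF and CDH5), 1 of 4 leukocyte genes (CD3E) and 2 of 3 neuronal genes (RBFOX3 and SYT1). Beside them 17.1% of all symbols rose, and CDH5 and CD3E were listed at 0 in untreated cells, a class in which 53.7% of the symbols tested rose, while COL1A2 was above 0 in 1 library, a class with 31.5%. At 10 µM against 0 µM COL1A1 alone of these markers rose, beside 5.3% of all symbols. The summed fibroblast markers went from 22549 to 32030 FPKM at 0 µM to 80820 to 86954 at 5 µM and 43279 to 51528 at 10 µM, while leukocyte markers stayed within 36280 to 50381 throughout. The summed endothelial markers lay at 1901 to 5031 FPKM, then 9786 to 12404 and 3267 to 3588, and the neuronal ones at 1643 to 1986, then 13879 to 15377 and 1933 to 3433. Among the defining markers 1 endothelial, 1 leukocyte and 1 neuronal gene were listed at 0 in all untreated libraries, and 1 fibroblast and 1 neuronal gene at 5 µM. The cultures are described as the HT-29 line alone, with no other cell type added. Any part of other cell types in the values of the 61 genes was not tested. In a bulk library a change in the number of cells and in RNA per cell cannot be told apart.

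Some values may include RNA of another gene, since the use of strand in the counting is not given in the sources used here. In the GRCh37 annotation 22 of the 61 genes share exonic sequence with another gene. For SIX5 57.1% of the exonic bases overlap an antisense RNA, for NKX2-2 30.1% overlap NKX2-2-AS1, and for PAX8 22.4% overlap PAX8-AS1. For NKX2-1 32.6% overlap SFTA3, which lies on the same strand, so strand would not separate them. LHX4 shares 30.7% with ACBD6, PAX6 25.4% with ELP4 and PAX9 25.4% with SLC25A21, each on the opposite strand. DLX1, DLX2, DLX3, DLX4, IRX4, LHX6, NKX2-4, PAX2, PAX4, PAX7, SIX4, TBX4, TBX6, TBX10 and TBX21 had no such overlap.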

How the data were processed

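RNA-Seq of 9 HT-29 cultures, 3 per dose, was analysed. The authors mapped reads with TopHat (hg19) and computed the deposited FPKM values, on a scale whose library term is not stated. No raw counts were used here. The 61 genes and all gene lists were chosen with earlier results of these data known. Values of repeated symbols (24934 entries, 23284 symbols) were summed. Symbols averaging at least 100 FPKM over the 6 libraries of a comparison were tested with limma 3.58.1 in R 4.3.3 (lmFit, eBayes with trend) on log2(FPKM + 100). Fold changes on this scale understate the change of low genes. Adding 1 in place of 100, and a largest FPKM of at least 10 as the filter, were run as alternatives. The paper's own filter is on alignment numbers and was not applied here. Calls needed a 2-fold difference and p no higher than 0.05 after Benjamini-Hochberg adjustment. The exact 2-sided permutation test of 3 against 3 cannot go below 0.1, which every gene whose groups did not overlap reached. The p-values measure the spread between these cultures.

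Depth was inferred from steps: the 51 values above 0 at microRNA genes 110 nucleotides long were whole-number multiples of a single step in each library, within 0.01. Where a gene gave no whole numbers, fragments were estimated from its annotated length, a relation that held within 1.5 times for 19 of 25 genes with steps. Bounds against a group at 0 allow 3 steps over the group and cover counting error only. Values in every sample are given for genes averaging at least 1000 FPKM in untreated cells and for those called in any comparison, except that results for some genes are not reported here. SIX2, TBX2, DLX5 and DLX6 are given beyond that rule and were chosen after their values were seen, as is SIX5 at 10 µM. On simulated data with 200 genes changed by 2 on the log2 scale, 98.5% were recovered with 5 false calls at 5 µM against 0 µM. The changed genes averaged at least 1000 FPKM and all genes were given the same dispersion. The recovery therefore does not describe genes of few steps. Same-numbered replicates of different doses correlated between -0.046 and 0.065 in their deviations, so the numbers do not pair the cultures. Positions are from GENCODE on GRCh37. Tables used Python 3.11.15, pandas 2.3.3 and numpy 2.4.6.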

Additional observations from a re-analysis of the deposited data

How the results depend on the processing

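At 5 µM against 0 µM, 12 of the 21 calls held under every alternative in which the gene was tested, among them DLX2, DLX3, LHX1, LHX6, NKX2-2, NKX2-4, PAX4, PAX7, TBX1, TBX6 and TBX10. LHX6 and NKX2-4 were not tested with a mean of at least 1000 FPKM. The number of genes that rose was 20, and 13 with a pseudocount of 1000 and 11 with a mean of at least 1000 FPKM, which removes low genes by construction. It was 16 with a pseudocount of 1 and 17 to 18 without a replicate. PAX4 was the only gene that fell except without a fold change threshold, which gave 3. An alternative chosen after the data were seen, at least 10 steps or estimated fragments in the higher group, left 18 by dropping NKX2-1 and TBX21.

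At 10 µM against 5 µM none of the 9 calls held under every alternative. The number lower was 8, and 4 without a filter on low values, 5 with median-of-ratios scaling, 4 with the replicate block and 0 to 13 without a replicate. Over all symbols tested, the number lower was 1130, and 279 to 1871 without a replicate. PAX4 was not higher, giving 0, with a pseudocount of 1000, in a fit of all 9 samples, with the replicate block and without any replicate. At 10 µM against 0 µM the call for NKX2-2 held under every alternative. The number that rose was 3, and 7 in a fit of all 9 samples, 5 with median-of-ratios scaling, 2 with a pseudocount of 1 or without a filter and 1 to 3 without a replicate. The fall of PAX4 was lost, giving 0, with a pseudocount of 1, without a filter, with a largest value of at least 10 and with median-of-ratios scaling, gave 0 to 1 without a replicate, and stood among 2 without a fold change threshold. With the replicate block 17 genes rose and 1 fell at 5 µM against 0 µM, and 3 and 1 at 10 µM against 0 µM. The largest entry of a repeated symbol changed no count. The cause of these differences was not tested.

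No called difference changed sign. Among the uncalled differences of the genes given in every sample, signs changed without a replicate for IRX5 (range -0.048 to 0.30), LHX4 (-0.093 to 0.24) and PAX6 (-0.083 to 0.40) at 5 µM against 0 µM, for DLX1 (-0.50 to 0.19) between the treated doses, and for DLX2 (-0.38 to 1.22), SIX3 (-0.045 to 1.81), LHX4 (-0.40 to 0.020), TBX19 (-0.25 to 0.028) and TBX3 (-0.23 to 0.0070) at 10 µM against 0 µM. Median-of-ratios scaling changed signs for DLX1 (0.031) and PAX8 (0.018) between the treated doses and for IRX2 (0.0015), LHX4 (0.043), TBX15 (0.071), TBX19 (0.15) and TBX3 (0.093) at 10 µM against 0 µM. Of all genes of these families tested, it moved the number with a positive difference from 20 to 26 of 37 at 10 µM against 0 µM. With a pseudocount of 1 the calls lost were DLX1, PAX2, PAX5 and SIX3 at 5 µM against 0 µM, NKX2-2, PAX7 and SIX3 between the treated doses, and DLX1 and PAX4 at 10 µM against 0 µM. Precision is limited by 3 cultures per dose and, for genes of few steps, by counting: NKX2-1 and TBX21 rested on 6 and 5 steps at 5 µM.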
